A study of Mus musculus with 4 samples.

Results

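The endoplasmic reticulum (ER) and integrated stress genes described here are 10 genes chosen by name, Atf4, Atf5, Ddit3, Trib3, Asns, Hspa5, Hsp90b1, Xbp1, Herpud1 and Dnajb9. All 10 were among the 22574 genes of the matrix, and the rule that names them uses no measured value. Single-nucleus RNA sequencing (snRNA-seq) had been made of cardiomyocyte nuclei from hearts of neonatal mice, in 4 libraries of 1 per group. Pups carried a loxP-flanked Nrf1 gene (Nrf1fl/fl, WT labels) or the same alleles with a Cre recombinase under the alpha myosin heavy chain promoter (Nrf1fl/fl:aMHC-Cre, KO labels). They underwent ligation of the left anterior descending artery (MI) or the same operation without ligation (Sham) at postnatal day 3, and hearts were taken 1 day later. Each library pooled tissue below the ligation plane from 4 to 6 hearts of 1 genotype. The labels give a C57BL/6 background for all pups, although the strain field carries a different suffix in each library. No control without loxP sites and no group with Cre alone is among these libraries.

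The matrix held 8585 nuclei, between 1406 and 3328 per library, and 4984625 to 9106522 unique molecular identifiers (UMIs, counts of captured RNA molecules) per library. The library labelled KO-Sham was the shallowest, with a median of 2572 UMIs per nucleus against 3553.5 to 3959 in the others, and 9 barcodes occurred in more than 1 library. Nfe2l1, the gene that encodes Nrf1, had 310 UMIs (62.2 CPM, counts per 1000000 UMIs) in the library labelled WT-Sham, 460 (50.5 CPM) in KO-Sham, 377 (47.4 CPM) in WT-MI and 407 (55.3 CPM) in KO-MI. Between KO and WT labels its log2 ratio was -0.30 after Sham (95% interval -0.51 to -0.09) and 0.22 after MI (0.02 to 0.43). Over all nuclei of the MI pair the targeted gene thus went against the label. By population the ratio after MI was 0.39 (0.14 to 0.63) in CM1 and 0.06 (-0.41 to 0.52) in CM5. It was -0.95 (-2.11 to 0.12) in CM4 and -0.81 (-2.20 to 0.50) in CM2, on few UMIs. Where the counted tags lie relative to the loxP-flanked part is not given in the sources used here, and tags outside that part would not check the deletion. Every KO and WT below is therefore the label of a library. Cardiomyocyte markers were present in every library and population, with 7 of 7 genes (Tnnt2, Ttn, Myh6, Ryr2, Actc1, Tnni3 and Myl2) summing to between 25266 and 44177 CPM in CM1, CM4 and CM5.

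Proteins that enter the ER are folded there by chaperones, and unfolded protein is sensed by Perk, Ire1 and Atf6, whose signals raise chaperones, folding enzymes and the machinery that returns misfolded protein to the cytosol for degradation. Perk shares its substrate, the translation factor eIF2alpha, with kinases that sense amino acid lack, heme lack and double-stranded RNA. Their common output, in which most translation falls while Atf4 is translated more, is the integrated stress response, and its targets include amino acid enzymes and transporters. Both responses are known from ischemic and failing myocardium. Their effectors act through short promoter elements. The ER stress response element (ERSE) joins CCAAT and CCACG with 9 bases between them, ERSE-II reads ATTGGNCCACG, and the C/EBP-ATF response element (CARE), to which Atf4 binds with a C/EBP partner, was searched as TGATGNAA.

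These elements were searched on both strands in the RefSeq promoter windows of build GRCm38.p6, which run from 250 bases before to 50 after each annotated start and cover all 10 genes. ERSE was found in 39 of 32851 windows (0.119%), among them those of Hspa5 and Hsp90b1. ERSE-II was found in 12 windows (0.0365%), among them Herpud1, and CARE in 1304 (3.97%), among them Asns, Herpud1 and Trib3. Matches in the 10 genes do not overlap each other, although ERSE-II shares CCACG and a reversed CCAAT with ERSE, and a match is a description of the letters. The 4 stretches are shown because they hold these elements in genes that went opposite ways below, with the matched bases in capitals, on the strand of the gene. They lie at chr2:34772020-34772048 (plus strand) for Hspa5, chr10:86705510-86705666 (minus strand) for Hsp90b1, chr8:94386307-94386428 (plus strand) for Herpud1 and chr6:7693214-7693243 (minus strand) for Asns. The stretches of Hspa5 and Asns lie in an exon of the GENCODE M21 annotation and are kept short.
Hspa5: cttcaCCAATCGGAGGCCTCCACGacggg
Hsp90b1: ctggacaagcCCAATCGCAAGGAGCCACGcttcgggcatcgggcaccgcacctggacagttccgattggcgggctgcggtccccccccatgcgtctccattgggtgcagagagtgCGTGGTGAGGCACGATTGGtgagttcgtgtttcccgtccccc
Herpud1: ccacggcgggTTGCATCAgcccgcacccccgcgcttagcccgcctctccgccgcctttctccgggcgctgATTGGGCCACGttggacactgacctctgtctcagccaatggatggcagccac
Asns: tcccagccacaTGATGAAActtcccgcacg
The first capitals of Herpud1 are CARE read on the opposite strand, beginning 112 bases before the RefSeq start, and its second are ERSE-II at 52 bases. Hsp90b1 has ERSE on its own strand at 212 bases and on the opposite strand at 107 bases before the start. Hspa5 has it at 65 bases and Asns has CARE at 23 bases.

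The first question was how these genes differed between infarcted and Sham hearts. For each library the UMIs of its nuclei were added up and divided by the total, and each CPM is given with an exact 95% Poisson interval that covers counting error only. With 1 library per group no difference between libraries can be tested, and differences between pools of hearts, runs or dissections cannot be told apart from those of surgery or genotype. Of the 10 genes, 5 had intervals of the log2 ratio of MI over Sham that excluded 0 in the pairs of both labels. Of these, Atf4, Hspa5, Hsp90b1 and Xbp1 were higher and Herpud1 was lower in the MI library. Ddit3, Trib3, Asns and Dnajb9 also had ratios above 0 in both pairs, each with an interval that held 0 in 1 pair.

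Among the transcription factors, Atf4 (chr15:80255184-80257541), the effector of the integrated stress response, had 36.9 CPM (31.8 to 42.6) in the library labelled WT-Sham, 31.7 (28.2 to 35.6) in KO-Sham, 56.8 (51.7 to 62.3) in WT-MI and 57.1 (51.7 to 62.8) in KO-MI. Both MI libraries lay above both Sham libraries without overlap of the intervals, and within a surgery the intervals overlapped. The log2 ratio of MI over Sham was 0.62 (0.37 to 0.88) for the WT labels and 0.85 (0.63 to 1.07) for the KO labels.

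Ddit3 (chr10:127290774-127296288), which encodes the pro-apoptotic factor CHOP, had 13.8 CPM (69 UMIs) in WT-Sham, 13.4 (122 UMIs) in KO-Sham, 19.0 (151 UMIs) in WT-MI and 13.6 (100 UMIs) in KO-MI. It was thus highest in the library labelled WT-MI, with a log2 ratio of MI over Sham of 0.46 (0.04 to 0.89) for the WT labels and 0.02 (-0.38 to 0.41) for the KO labels. Atf5 (chr7:44812256-44816658), a related factor that also controls mitochondrial stress genes, had 11.6, 7.03, 11.2 and 8.83 CPM in WT-Sham, KO-Sham, WT-MI and KO-MI. Its ratios of MI over Sham were -0.06 (-0.55 to 0.45) and 0.33 (-0.19 to 0.85), and the lowest level was that of KO-Sham. Genes on the opposite strand overlap both of them, Mars and Gm4189 for Ddit3 and Nup62 and Il4i1 for Atf5, and the use of strand in counting is not given in the sources used here, so their counts are uncertain.

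Trib3 (chr2:152337422-152344032), a pseudokinase target of Atf4 and CHOP, was near the limit of the data, with 3 UMIs in WT-Sham, 5 in KO-Sham, 10 in WT-MI and 15 in KO-MI, each in a different nucleus. Over the KO labels its log2 ratio of MI over Sham was 1.89 (0.36 to 3.71) on 20 UMIs. Asns (chr6:7675169-7693254), asparagine synthetase, had 11 UMIs (2.21 CPM), 23 (2.53 CPM), 34 (4.27 CPM) and 43 (5.84 CPM) in the same order. Its ratio of MI over Sham was 0.95 (-0.06 to 2.08) for the WT labels and 1.21 (0.45 to 2.01) for the KO labels, so that a difference was detectable at this depth for the KO labels alone, and the difference between these ratios was not tested.

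Among the chaperones, Hspa5 (chr2:34771970-34777547), which encodes BiP, the main Hsp70 of the ER, had 139 CPM (129 to 150) in the library labelled WT-Sham, 155 (147 to 163) in KO-Sham, 205 (195 to 215) in WT-MI and 249 (238 to 261) in KO-MI. The levels ascended in that order and only the intervals of the Sham libraries overlapped. The log2 ratio of MI over Sham was 0.56 (0.43 to 0.69) for the WT labels and 0.69 (0.59 to 0.79) for the KO labels. Hsp90b1 (chr10:86690209-86705509), the ER Hsp90 also called GRP94, had 135 (125 to 145), 141 (133 to 148), 174 (165 to 183) and 210 CPM (199 to 220) in the same order of libraries. Its order was that of Hspa5, again with overlap between the Sham libraries, and its ratios of MI over Sham were 0.37 (0.24 to 0.51) and 0.58 (0.47 to 0.68). The annotation places 3 genes over Hsp90b1, 1810014B01Rik on the opposite strand and Gm15344 and Gm25745 on the same strand. Its counts are therefore uncertain as well.

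Xbp1 (chr11:5520659-5525893), the factor whose RNA is spliced by Ire1, had 22.1 CPM (18.1 to 26.6) in WT-Sham, 25.6 (22.4 to 29.1) in KO-Sham, 35.6 (31.5 to 40.0) in WT-MI and 36.5 (32.3 to 41.2) in KO-MI. The MI libraries lay above the Sham libraries, with ratios of 0.69 (0.37 to 1.02) for the WT labels and 0.51 (0.26 to 0.77) for the KO labels. In CM1 alone they were 0.66 (0.29 to 1.05) and 0.18 (-0.14 to 0.49). For the KO labels the ratio was 0.95 (0.00 to 1.89) in CM4, 1.16 (0.37 to 2.03) in CM5 and 1.97 (0.41 to 3.79) in CM2 on few UMIs. CM5 was 7.03% of KO-Sham and 19.2% of KO-MI nuclei. The part of this share was not tested beyond an alternative with an equal mix of populations in both libraries. Under the alternatives run, that mix among them, the ratio over all nuclei for the KO labels ranged from 0.45 to 0.68. Counts per gene do not separate spliced from unspliced Xbp1 RNA. Dnajb9 (chr12:44205559-44210326), a co-chaperone of BiP also called ERdj4, had 11.4, 10.8, 13.1 and 14.5 CPM in WT-Sham, KO-Sham, WT-MI and KO-MI, and its ratios were 0.19 (-0.29 to 0.69) and 0.43 (0.02 to 0.84).

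Herpud1 (chr8:94386438-94395377) went the other way. This membrane protein of the degradation machinery, whose promoter holds ERSE-II and CARE, had 47.5 CPM (41.7 to 54.0) in WT-Sham, 42.8 (38.7 to 47.3) in KO-Sham, 27.4 (23.9 to 31.3) in WT-MI and 31.1 (27.2 to 35.4) in KO-MI. Both MI libraries lay below both Sham libraries without overlap of intervals. Gm15890 lies over Herpud1 on the opposite strand, as Mir5627 does over Dnajb9, so these counts are uncertain too. The ratio of MI over Sham was -0.80 (-1.07 to -0.52) for the WT labels and -0.46 (-0.70 to -0.22) for the KO labels. In CM1 nuclei alone these were -0.77 (-1.09 to -0.46) and -0.47 (-0.76 to -0.19). The levels of all 10 genes in each library are drawn in the plot of levels by library.

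**Figure D1:**
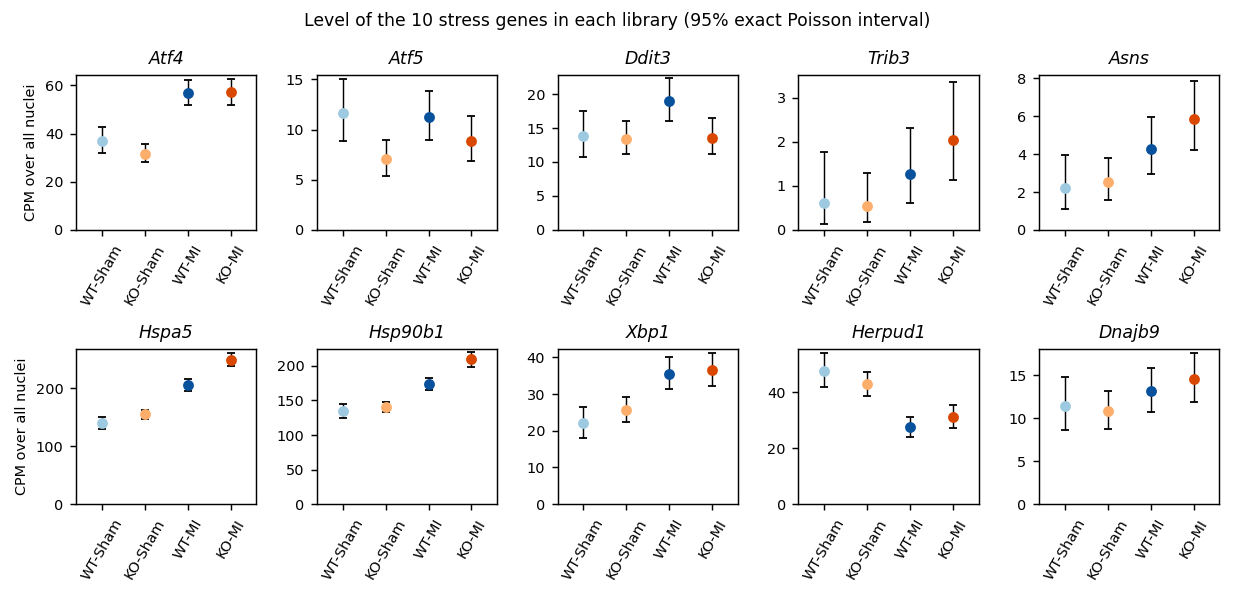
Each panel plots 1 gene, with the libraries labelled WT-Sham, KO-Sham, WT-MI and KO-MI on the horizontal axis and CPM over all nuclei on the vertical axis, which starts at 0. Points are the values of single libraries and bars are 95% exact Poisson intervals. Atf4, Hspa5, Hsp90b1 and Xbp1 lie higher in both MI libraries (Hspa5 at 205 and 249 CPM) and Herpud1 lies lower (27.4 and 31.1 CPM).

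Genes were counted as different at 1.5-fold or more, if both sums together held at least 50 UMIs. From WT-Sham to WT-MI, 2 of the 8 genes that reached 50 UMIs were higher by this size (Atf4 and Xbp1) and 1 was lower (Herpud1), where 10.2% of 11362 genes were higher and 13.7% lower. From KO-Sham to KO-MI, 3 of 9 were higher (Asns, Atf4 and Hspa5), against 11.7% of 11857 genes, and none was lower, against 10.8%. Atf4 was the 1 gene past this size in both pairs over all nuclei. The share of all genes past it in both pairs was not computed, here or for the related lists below. In CM1 alone Atf4 had 0.38 (0.09 to 0.67) for the WT labels and 0.64 (0.38 to 0.90) for the KO labels. Hspa5 had 0.40 (0.25 to 0.56) and 0.41 (0.28 to 0.53) there, and Hsp90b1 0.35 (0.19 to 0.51) and 0.32 (0.18 to 0.45). In CM1, Atf4 for the WT labels and Hspa5 for the KO labels were thus within 1.5-fold. The count of 1 lower gene in 8 is close to the share over all genes. The median log2 ratio of the tested members was 0.41 for the WT labels and 0.51 for the KO labels, beside -0.06 and 0.04 over all genes tested. Asns and Trib3 did not reach 50 UMIs in the first pair and Trib3 did not in the second. Under other ways of scaling and selecting nuclei, the ratio of Xbp1 for the WT labels ranged from 0.34 to 0.86 and was below 1.5-fold at its lower end, as was that of Atf4 for the WT labels (0.54 to 0.83).

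Other measures moved with surgery. The 4 long RNAs kept in the nucleus (Malat1, Neat1, Meg3 and Kcnq1ot1) summed to 93264 and 87943 CPM in WT-Sham and KO-Sham and to 124738 and 120162 CPM in WT-MI and KO-MI. The median share of mitochondrial UMIs was 6.58% and 8.98% in the Sham libraries and 5.37% and 5.29% in the MI libraries. Of 11 myeloid markers, 9 were past 1.5-fold higher for the WT labels, and for the KO labels 8 of the 10 with enough UMIs were, and their sum went from 132 to 557 CPM and from 100 to 285 CPM. Their part in these results was not tested. Where nuclei were limited to those with a share of such transcripts at or below the median of their library and population, the ratio of Hspa5 for the KO labels was 0.56, within 1.5-fold, and that of Atf4 was 0.74.

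The second question was how the libraries labelled KO differed from those labelled WT. After MI, none of 9 tested members differed by 1.5-fold, where 1.89% of 11700 genes were higher and 1.73% lower. Smaller differences had intervals that excluded 0. On the log2 scale the KO-MI library exceeded WT-MI by 0.29 (0.19 to 0.38) for Hspa5 and by 0.27 (0.16 to 0.37) for Hsp90b1, while Ddit3 was lower, at -0.48 (-0.86 to -0.11). Atf4, with 0.01 (-0.19 to 0.20), and Xbp1, with 0.04 (-0.21 to 0.29), had intervals that held 0 and stayed within 1.5-fold. Herpud1 had 0.18 (-0.09 to 0.46), Dnajb9 0.15 (-0.25 to 0.56), Atf5 -0.34 (-0.83 to 0.14) and Asns 0.45 (-0.23 to 1.14). Myeloid markers summed to 557 CPM in WT-MI and 285 in KO-MI, with 7 of 11 past 1.5-fold lower, and 5 red blood cell markers to 4519 and 2123 CPM, with 4 of 5 lower. Their part was not tested. In nuclei with a low share of such transcripts the ratios of Hspa5 and Hsp90b1 were 0.20 and 0.21.

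In the Sham pair, 1 of 8 tested members, Atf5, was lower by 1.5-fold in the library labelled KO-Sham, at -0.73 (-1.26 to -0.19), where 3.08% of 11478 genes were lower. None was higher, against 3.96%. Hspa5 had a ratio of 0.16 (0.02 to 0.29) and Hsp90b1 0.06 (-0.07 to 0.20). The ratios of Atf4 (-0.22, from -0.49 to 0.06), Xbp1 (0.21, from -0.12 to 0.55) and Herpud1 (-0.15, from -0.39 to 0.09) had intervals that held 0. Endothelial markers summed to 576 CPM in WT-Sham and 877 in KO-Sham and red blood cell markers to 3296 and 2318, beside the mitochondrial shares of 6.58% and 8.98%, and their part was not tested. The 2 comparisons by label and the 2 by surgery use the same 4 libraries, so their values are not independent. Both sets are drawn in the plot of log2 ratios between libraries.

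**Figure D2:**
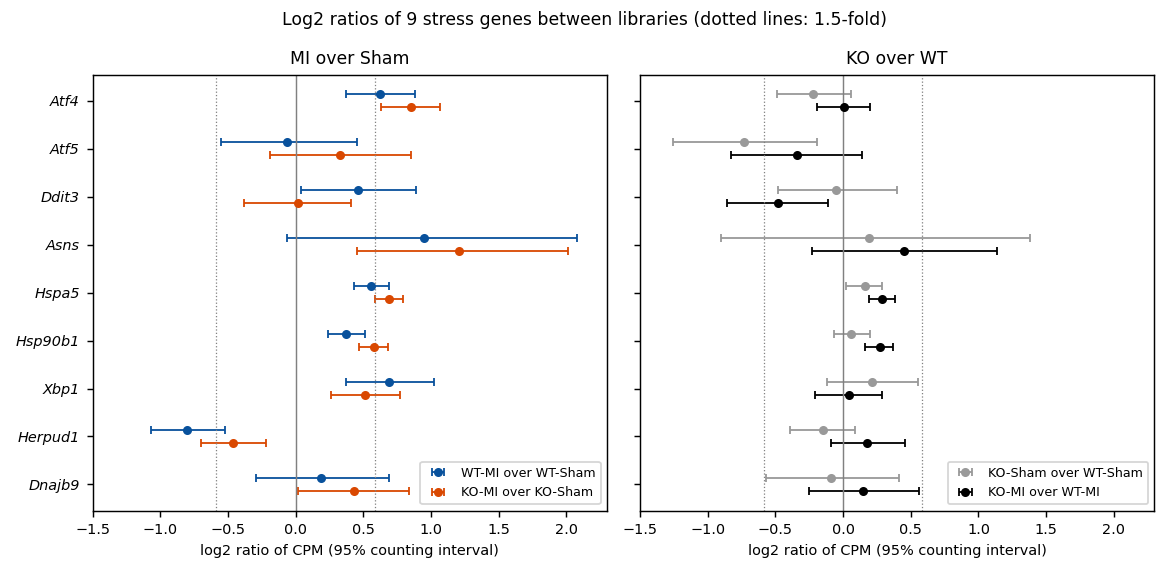
Log2 ratios of CPM (horizontal axis) are plotted for 9 genes (vertical axis), MI over Sham on the left and KO over WT labels on the right, with 95% intervals that cover counting error only and dotted lines at 1.5-fold. Trib3 is left out for its low counts. On the left Herpud1 alone lies below 0 with both intervals (-0.80 and -0.46), and on the right Hspa5 and Hsp90b1 lie at 0.29 and 0.27 for the MI labels.

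The cardiomyocyte populations were compared next. The authors named them CM1 (with CM3 merged into it), CM2, CM4, which they describe as immature and proliferative, and CM5, which they describe as induced by injury. They were drawn from the expression of the same nuclei, so a difference between populations is a description. CM4 was 6.39% to 13.7% of nuclei per library and CM5 6.33% and 7.03% in the Sham libraries and 16.9% and 19.2% in the MI libraries. CM2, the smallest, held 27 to 124 nuclei per library, in which Hspa5 had 97.8, 101, 140 and 200 CPM on 11, 41, 36 and 58 UMIs in WT-Sham, KO-Sham, WT-MI and KO-MI.

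In CM4, Hspa5 had 250 CPM (203 to 305) in the library labelled WT-Sham, 198 (168 to 234) in KO-Sham, 425 (365 to 492) in WT-MI and 393 (329 to 465) in KO-MI, against 129, 153, 171 and 203 CPM in CM1. CM4 was above CM1 in all 4 libraries, by 0.96 (0.63 to 1.27), 0.38 (0.12 to 0.63), 1.32 (1.08 to 1.55) and 0.96 (0.69 to 1.21) on the log2 scale. Hsp90b1 was above CM1 as well, by 0.91 (0.57 to 1.23), 0.34 (0.06 to 0.61), 1.14 (0.88 to 1.40) and 0.91 (0.61 to 1.19). Atf4 was above CM1 in CM4 of the MI libraries, with 90.2 CPM on 38 UMIs in WT-MI (0.91, from 0.38 to 1.40) and 84.4 CPM on 29 UMIs in KO-MI (0.79, from 0.19 to 1.35). In the Sham libraries its ratios were 0.22 (-0.59 to 0.95) and 0.13 (-0.53 to 0.73). After nuclei were thinned to 1000 UMIs the ratios of Atf4 were 0.97 in WT-Sham, -0.70 in KO-Sham, 0.21 in WT-MI and 0.13 in KO-MI, so the pattern of Atf4 across the libraries was not kept. The same thinning gave Hsp90b1 0.51 in WT-Sham and 0.05 in KO-Sham. Its lowest ratio under any alternative was 1.05 in WT-MI and 0.80 in KO-MI.

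Past 1.5-fold over CM1 were 5 of 8 tested members in CM4 of WT-Sham, 1 of 8 in KO-Sham, 8 of 8 in WT-MI and 6 of 7 in KO-MI. Among all genes tested 23.4%, 16.6%, 26.4% and 26.0% were higher by this size in the same order, so large ratios were frequent in CM4 and the 1 of 8 in KO-Sham is near that share. CM4 nuclei were shallow, with medians of 1715.5 to 2394 UMIs, and had 9.47% to 14.6% mitochondrial UMIs. Their long nuclear RNAs summed to 24434, 54324, 59985 and 39407 CPM in WT-Sham, KO-Sham, WT-MI and KO-MI, against 91296 to 124392 CPM in CM1. Endothelial markers (7 genes) summed to between 1583 and 1659 CPM in CM4 and 450 to 820 in CM1, and fibroblast markers (7 genes) to between 2011 and 2481 and 905 to 1048. Red blood cell markers summed to 12805, 7833, 8411 and 3538 CPM in CM4 of WT-Sham, KO-Sham, WT-MI and KO-MI, against 2545, 1891, 3829 and 2025 in CM1, and myeloid markers to 212, 134, 985 and 527 against 125, 96.4, 544 and 271. The part of these differences in the levels was not tested. Among nuclei under 10% mitochondrial UMIs, the ratio of Hspa5 in CM4 over CM1 of WT-Sham was 0.21 and that of Hsp90b1 0.49.

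In CM5, Hspa5 had 141 CPM (104 to 189) in WT-Sham and 157 (128 to 191) in KO-Sham, where CM5 did not stand apart from CM1 (0.13, from -0.34 to 0.57, and 0.04, from -0.27 to 0.34). It had 286 CPM (259 to 314) in WT-MI and 402 (369 to 436) in KO-MI, above CM1 by 0.74 (0.57 to 0.91) and 0.99 (0.84 to 1.14). The ratios of Hsp90b1 were 0.40 (-0.04 to 0.81) in WT-Sham, 0.07 (-0.25 to 0.38) in KO-Sham, 0.35 (0.16 to 0.54) in WT-MI and 1.03 (0.86 to 1.19) in KO-MI, so for the WT labels they were alike in size after both surgeries. Atf4 was 0.88 (0.56 to 1.18) and 0.79 (0.46 to 1.11) above it, with 88.0 CPM (73.5 to 104) in WT-MI and 84.0 (69.6 to 101) in KO-MI, against 24.6 and 29.9 CPM in CM5 of the Sham libraries on 8 and 19 UMIs. Xbp1 had 0.60 (-0.51 to 1.55) in WT-Sham, -0.04 (-0.88 to 0.70) in KO-Sham, 0.58 (0.17 to 0.99) in WT-MI and 0.94 (0.53 to 1.34) in KO-MI. Dnajb9 had 0.82 (-0.25 to 1.74) in KO-Sham on 11 UMIs in CM5 and 0.88 (0.22 to 1.51) in KO-MI, with 21.0 against 10.5 CPM in WT-MI (interval of the log2 ratio 0.32 to 1.64) and 1 UMI in CM5 of WT-Sham.

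Herpud1 was not higher in CM5 than in CM1 of the MI libraries, with -0.28 (-0.87 to 0.27) in WT-MI and 0.23 (-0.27 to 0.71) in KO-MI. Past 1.5-fold over CM1 were 1 of 6 tested members in CM5 of WT-Sham, 1 of 7 in KO-Sham, 3 of 8 in WT-MI and 6 of 8 in KO-MI, where 9.54%, 7.26%, 12.2% and 13.9% of all genes were. Trib3 had 9 of the 15 UMIs of KO-MI in CM5. The plot of levels by population shows 6 of the genes.

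**Figure D3:**
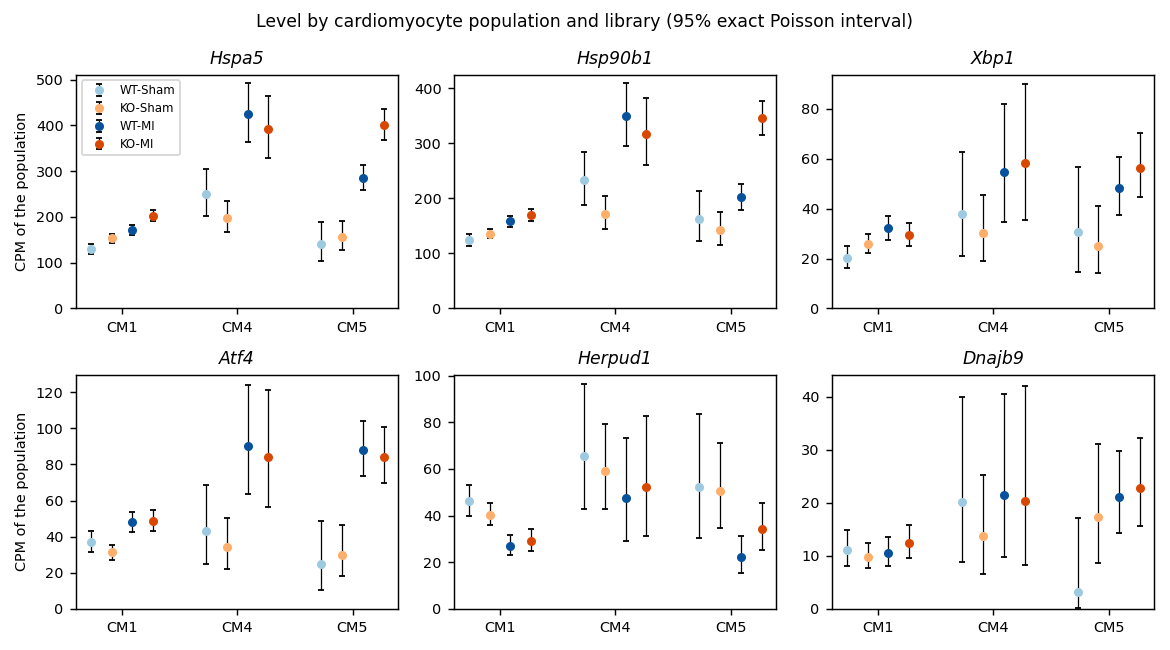
CPM (vertical axis, from 0) of 6 genes in CM1, CM4 and CM5 (horizontal axis), with the 4 libraries in colour and 95% exact Poisson intervals. Hspa5 and Hsp90b1 are above CM1 in CM4 of every library and in CM5 of the MI libraries (Hspa5 at 286 and 402 CPM). For Hsp90b1 the log2 ratio of CM5 over CM1 is 0.40 (-0.04 to 0.81) in WT-Sham and 0.35 (0.16 to 0.54) in WT-MI. Atf4 is above CM1 in CM4 and CM5 of the MI libraries, while the values of Herpud1 are lower in MI than in Sham in CM1 and CM5.

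Between the labels after MI, the chaperones differed in CM5. Hsp90b1 had 202 CPM (179 to 226) in CM5 of the library labelled WT-MI and 345 (315 to 377) in that labelled KO-MI, with a ratio of 0.77 (0.56 to 0.99) on the log2 scale. Hspa5 had 0.49 (0.31 to 0.68) and Herpud1 0.61 (-0.06 to 1.30) on 33 and 48 UMIs. Past 1.5-fold higher in KO-MI were 2 of 7 tested members, Hsp90b1 and Herpud1, where 5.44% of 6833 genes were. In CM1 the ratio of Hsp90b1 was 0.10 (-0.03 to 0.24) and that of Hspa5 0.25 (0.12 to 0.37), and in CM4 they were -0.14 (-0.51 to 0.23) and -0.11 (-0.45 to 0.22). In CM2 they were 0.80 (0.08 to 1.55) and 0.52 (-0.11 to 1.16) on few UMIs. In the Sham pair the ratio of Hspa5 was 0.24 (0.09 to 0.40) in CM1, so in CM1 it was alike in size after both surgeries. It was -0.33 (-0.71 to 0.05) in CM4 and 0.15 (-0.36 to 0.69) in CM5. That of Hsp90b1 was 0.14 (-0.02 to 0.29), -0.43 (-0.83 to -0.03) and -0.19 (-0.69 to 0.33) in CM1, CM4 and CM5. The differences between populations or surgeries in these ratios were not tested. In CM5 nuclei with a low share of transcripts of other cells the ratio of Hsp90b1 was 0.49, that of Hspa5 0.11 and that of Herpud1 0.17, all within 1.5-fold.

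Few nuclei held many UMIs of Hspa5. A nucleus with 5 or more Hspa5 UMIs was rare, with 2 in WT-Sham, 2 in KO-Sham, 22 in WT-MI and 28 in KO-MI. Of those in the MI libraries, 12 and 19 were CM5. The highest, a CM5 nucleus of KO-MI with 5639 UMIs in all, had 38 of Hspa5 and 27 of Hsp90b1, and 8 of the 10 highest were CM5 nuclei of KO-MI. After each nucleus was thinned to 1000 UMIs, 3 or more Hspa5 UMIs were found in 1 of 1400 nuclei of WT-Sham, 2 of 3328 of KO-Sham, 8 of 2002 of WT-MI and 13 of 1848 of KO-MI, so such nuclei were more frequent in the MI libraries at equal depth too. Thinning left out 6 nuclei of WT-Sham and 1 of WT-MI.

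Hsp90b1 was high in the same nuclei. In the MI libraries together, the 50 nuclei with 5 or more Hspa5 UMIs had 1142 CPM of Hsp90b1 and the other 3801 had 178 CPM, a log2 ratio of 2.69 (2.49 to 2.87). Dnajb9 had 87.9 against 12.7 CPM (2.79, from 2.03 to 3.47) and Herpud1, lower after MI over all nuclei, had 111 against 28.0 CPM (1.99, from 1.33 to 2.58). Atf4 was higher by 1.10 (0.48 to 1.66), Xbp1 by 1.23 (0.47 to 1.91) and Atf5 by 1.94 (0.70 to 2.95) on 8 UMIs, and these and the 3 genes above were higher in either library. Ddit3 was not alike in the libraries, with 84.0 against 12.4 CPM in KO-MI on 10 UMIs, of which 1 nucleus held 5, and 10.3 against 19.1 CPM in WT-MI on 1 UMI. Within CM5 alone Hsp90b1 had 1516 against 209 CPM and Herpud1 138 against 22.6 CPM.

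These nuclei had a median of 4326 UMIs against 3950 in the others and 6.28% against 5.31% mitochondrial UMIs. Fibroblast markers summed to 2025 against 980 CPM, endothelial markers to 735 against 562, myeloid markers to 319 against 428, red blood cell markers to 2645 against 3378 and plasma cell markers to 13.9 against 13.2. Their part was not tested. Nuclei were selected on Hspa5, whose own values are therefore not compared, with or without them. Without them the ratio of Hsp90b1 in CM5 was 0.54 for KO-MI over WT-MI, within 1.5-fold, and its ratio of CM5 over CM1 was 0.13 in WT-MI and 0.57 in KO-MI. The pairs of counts are drawn in the plot of Hspa5 and Hsp90b1 per nucleus.

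**Figure D4:**
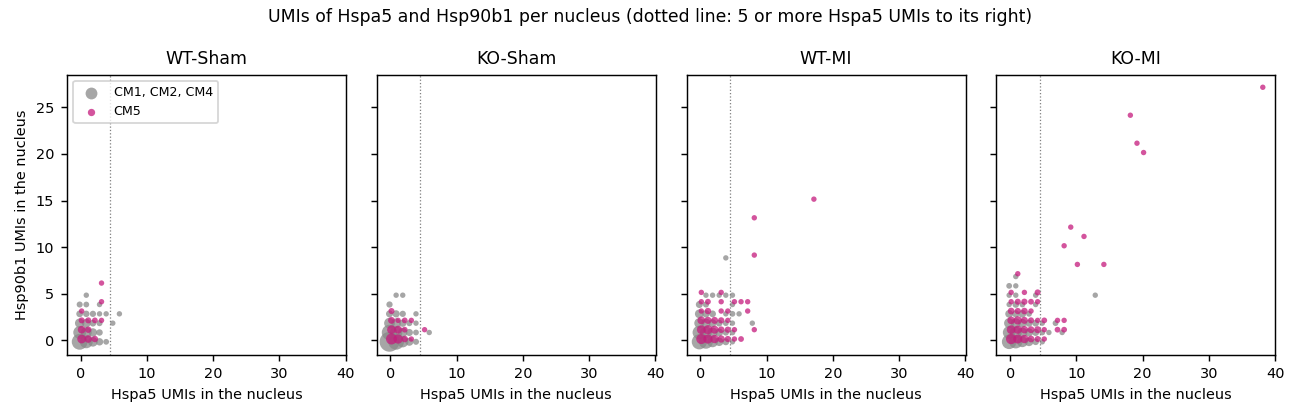
Each panel is 1 library, with UMIs of Hspa5 in a nucleus on the horizontal axis and of Hsp90b1 on the vertical axis. Points stand for the nuclei with that pair of counts, larger where there are more, in grey for CM1, CM2 and CM4 and in pink for CM5, and both are shifted slightly apart. Nuclei high in both genes appear in the MI libraries, up to 38 and 27 UMIs in KO-MI, and the Sham libraries reach 6 Hspa5 UMIs.

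How the genes varied together was described over the 16 sums of 4 libraries and 4 populations, which share library, depth and population, for genes with 300 or more UMIs and on log2(CPM + 10). Hspa5 was close to Hsp90b1 (Pearson r = 0.913) and Xbp1 (0.905), and Atf4 was closer to Hsp90b1 (0.763) and Hspa5 (0.758) than to Ddit3 (0.503). Herpud1 was not close to any of them, from -0.488 with Ddit3 to 0.324 with Hsp90b1. Among 8743 genes, those most like Hspa5 were P4hb (0.945), Des (0.943) and Txndc5 (0.934), of which P4hb and Txndc5 are protein disulfide isomerases of the ER. Most like Hsp90b1 were Bax, Eif5 and Des (0.944, 0.939 and 0.914), and most like Xbp1 were Txndc5 (0.906), Hspa5 and Vps4b (0.900). For Herpud1 they were Ndufa8, Dhrs1 and Grcc10 (0.933, 0.919 and 0.917), for Atf4 Ablim3, Adamts2 and Pa2g4 (0.902, 0.885 and 0.883), for Ddit3 Eri3, Stk11 and Trp53 (0.846, 0.841 and 0.840) and for Dnajb9 Chmp4b, Prnp and Adamts2 (0.866, 0.864 and 0.854). Some sums held few UMIs, such as 5 of Ddit3 in CM2 of WT-Sham (44.4 CPM) and 1 of Dnajb9 in CM5 of WT-Sham. The correlations of these genes therefore carry much counting error.

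The remaining genes of these pathways were taken from 6 lists. The list of 36 amino acid and integrated stress response genes, of which 31 reached 50 UMIs in each pair, had the highest medians of the 6 after MI, with 16 of 31 past 1.5-fold higher and 2 lower for the WT labels and 16 of 31 higher and none lower for the KO labels, against the shares over all genes of 10.2% and 13.7%, and 11.7% and 10.8%. These medians were 0.61 and 0.59, and 11 genes were higher by this size in both pairs. The share of all genes higher in both pairs was not computed, so this overlap cannot be set beside it. Gdf15, a secreted stress cytokine, was the highest, from 6 UMIs (1.20 CPM) in WT-Sham to 147 (18.5 CPM) in WT-MI (3.94, from 2.78 to 5.41), and from 18 to 150 UMIs for the KO labels (3.37, from 2.66 to 4.16). The lowest were Ddit4, an inhibitor of mTORC1, at -1.11 (-1.83 to -0.41) for the WT labels and Vldlr, a lipoprotein receptor, at -0.42 (-0.55 to -0.28) for the KO labels. The others past the size in both pairs, named after their values were seen, were Aars, Aldh18a1, Atf3, Cars, Cebpb, Phgdh, Psat1, Slc3a2, Slc7a1 and Slc7a5, which include tRNA synthetases, enzymes of serine and proline synthesis and amino acid transporters.

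The list of ER chaperones and oxidoreductases (22 genes, 21 tested) had medians of 0.47 and 0.46, with 6 and 4 genes past 1.5-fold higher and none lower, where 10.2% and 11.7% of all genes were higher. Ero1l, the oxidase that reloads disulfide isomerases, was highest in both pairs, at 0.99 (0.72 to 1.26) and 1.19 (0.96 to 1.42), and P4hb was the other gene past the size in both. The lowest were Sdf2 (-0.41, from -0.65 to -0.18) and Sil1 (-0.14, from -0.34 to 0.05). Sensors and regulators (14 genes) had medians of 0.05 and 0.26, with 1 and 2 genes higher by this size, near those shares. Ppp1r15a, which encodes the phosphatase subunit GADD34 that ends the eIF2alpha signal, was highest in both (1.45, from 0.73 to 2.23, and 0.81, from 0.24 to 1.38). The lowest were Atf6 (-0.40, from -0.53 to -0.28) for the WT labels and Mbtps1, a protease that activates Atf6 (-0.39, from -0.67 to -0.12), for the KO labels.

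Genes of ER-associated degradation (20 genes, 19 tested), to which Herpud1 is related in function, had medians of 0.00 and 0.20. Past 1.5-fold were 1 and 2 genes higher and 1 lower in each pair. These counts were near or below the shares over all genes of 10.2% and 11.7% higher and 13.7% and 10.8% lower. Edem1 was highest (1.06, from 0.49 to 1.67, and 0.72, from 0.28 to 1.16) and Edem2 lowest (-0.67, from -1.19 to -0.16, for the WT labels, and 5.16 against 10.3 CPM for the KO labels, with a log2 ratio between -1.58 and -0.44), 2 related proteins that act on glycans of misfolded proteins. The translocon and signal peptidase list (18 genes) had medians of 0.32 and 0.09, with 2 and 3 genes higher, near the same shares, and none lower. Spcs3 was highest (0.83, from 0.47 to 1.19, and 1.12, from 0.80 to 1.45), and Srp9 (-0.39, from -0.61 to -0.17) and Spcs1 (-0.57, from -0.75 to -0.41) were lowest for the WT and KO labels. Chaperones and proteases of mitochondria (10 genes) had medians of 0.06 and -0.06, and none was past 1.5-fold in either direction, from -0.37 (-0.55 to -0.20) for Clpx to 0.46 (0.08 to 0.85) for Htra2 in the WT pair and from -0.24 (-0.39 to -0.08) for Clpx to 0.19 (0.08 to 0.29) for Hspa9 in the KO pair. The 6 lists are drawn in the plot of the related gene lists.

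**Figure D5:**
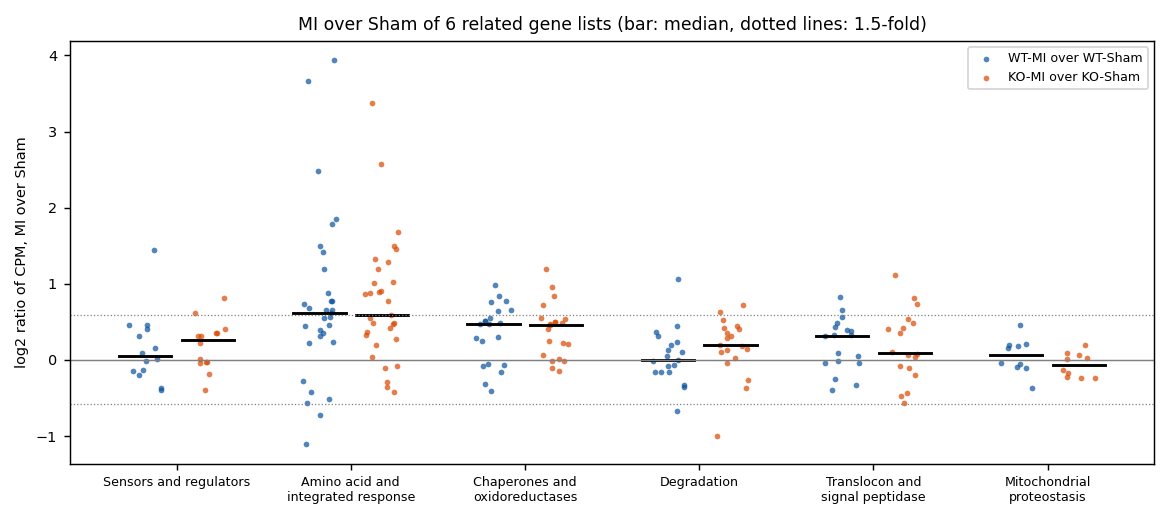
Log2 ratios of MI over Sham (vertical axis) for genes with 50 or more UMIs in 6 lists (horizontal axis), in blue for the WT labels and orange for the KO labels, with the median of each list as a black bar and dotted lines at 1.5-fold. The amino acid and integrated response list has the highest medians (0.61 and 0.59), followed by chaperones and oxidoreductases (0.47 and 0.46).

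Between the labels the medians of the amino acid list and of chaperones and oxidoreductases were smaller than between surgeries, which did not hold for every list. In the Sham pair the medians of KO over WT were -0.06 for the amino acid list and 0.04 for chaperones and oxidoreductases. They were -0.16 for sensors, -0.13 for degradation, 0.21 for the translocon and 0.16 for mitochondrial proteostasis, beside -0.09 over all genes. After MI the medians of KO over WT were 0.07 for the amino acid list, 0.10 for chaperones and oxidoreductases, -0.02 for sensors, 0.10 for degradation, 0.13 for the translocon and 0.07 for mitochondrial proteostasis, beside 0.03 over all genes. Past 1.5-fold were 2 genes higher and 1 lower of 31 in the amino acid list and 1 lower of 19 in the degradation list, and none of the other lists, where 1.89% of all genes were higher and 1.73% lower.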

How the data were processed

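Nuclei of 4 libraries, 1 per group, were profiled with a 10x Genomics 3′ kit, for which the labels and the methods name different versions. The methods state alignment by Cell Ranger to a pre-mRNA reference of mm10, introns included. Doublets were removed with Scrublet, nuclei with 200 to 2500 genes were kept and cardiomyocytes were selected. The version of Cell Ranger and the annotation release are not given in the sources used here. The authors deposited UMI counts per gene and nucleus with no normalization, and the percent of mitochondrial UMIs and a population label per nucleus. Their transferred labels, made with Seurat (version 3 per the processing notes), exchange the names CM2 and CM5 and were mapped before use. A further 10 deposited columns were not used.

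Counts were summed per library and population with Python 3.11.15 and divided to CPM. Ratios have exact conditional binomial intervals. Where either sum of a single-gene ratio held 0 UMIs, that sum was set to 3 UMIs. Levels, shares over all genes and list medians used the counts unchanged. Sums use the total UMIs, and levels are not compared between genes because 3′ counts with introns do not scale with length. Groups came from the sample titles. No test was made with 1 library per group. The members and lists were chosen with earlier results of these data known. Named are all 10 members, the highest and lowest gene of each related list in each pair by surgery, the 3 genes most like each member with 300 or more UMIs, and Nfe2l1. Ratios and intervals were tested on simulated data. Gene positions are from GENCODE M21 (GRCm38), which held 22122 of 22574 symbols (98.0%). Scaling alternatives used edgeR 4.0.16 (TMM) and DESeq2 1.42.0 (median of ratios).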

Additional observations from a re-analysis of the deposited data

How the results depend on the processing

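The medians of the members stayed within counting error of the values above under all alternatives run, which does not fix the sign of medians near 0. The alternatives were TMM and median-of-ratios scaling, a total without the mitochondrial genome and Malat1, mean CPM over nuclei, an equal mix of populations and thinning. Others were agreement of both population labels, a low share of mitochondrial or of other-cell UMIs, and other minimum counts. The last left out the nucleus with the most UMIs of a gene, or nuclei with 5 or more Hspa5 UMIs. The counts of members past 1.5-fold moved more. From WT-MI to KO-MI the count was 0, and became 2 after thinning to 1000 UMIs and 2 among nuclei with a low share of other-cell UMIs, and 1 with agreeing labels, without the nuclei high in Hspa5, at a minimum of 20 UMIs and with no minimum. From WT-Sham to KO-Sham it went from 1 to 2 after thinning, from WT-Sham to WT-MI from 3 to 5 with no minimum, and from KO-Sham to KO-MI from 3 to 5 after thinning. Of 1040 ratios of single members under alternatives, 62 had the other sign, 19 of them after thinning. Of these 1040, 7 that were past 1.5-fold took the other sign. A further 49, of any size, moved by more than counting error. For CM4 over CM1, thinning gave Dnajb9 -0.70 in WT-Sham and -0.78 in KO-MI, a low share of other-cell UMIs gave Atf5 -0.04 in KO-Sham and Ddit3 0.11 in WT-Sham, and under 10% mitochondrial UMIs Ddit3 had 0.64 in WT-Sham and -0.07 in WT-MI. For CM5 over CM1, thinning gave Atf5 -0.12 in KO-MI. The cause was not tested. The selection on other cells by share, the one on Hspa5 and the alternatives for single members in CM4 over CM1, CM5 over CM1 and the labels within CM5 were added after seeing the data. The planned selection of nuclei with no such UMI left 26 nuclei and was not used. No paired analysis was possible because each group holds 1 library. Depth limits Trib3, Asns and all genes in CM2, and Atf5, Ddit3 and Dnajb9 in CM4 and CM5.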
